A study of Mus musculus with 10 samples.

Results

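Guanylate-binding proteins (GBPs) are large GTPases that mouse cells make when they meet interferon-gamma and, to a lesser degree, the type I interferons. They assemble on the membranes of intracellular bacteria and parasites and of the vacuoles that hold them, and those of the chromosome 3 cluster help to switch on inflammasomes in mouse macrophages. Macrophages, endothelium and many epithelial and tumour cells can all express them, so their transcripts are widely read as a trace of interferon exposure in a tissue. The 8 genes described here are Gbp2, Gbp3, Gbp5 and Gbp7 of the chromosome 3 cluster and Gbp4, Gbp6, Gbp8 and Gbp9 of the chromosome 5 cluster. They were chosen by symbol and are 8 of the 55020 lines of the deposited expression table. Each symbol had 1 line, and all 8 passed the filter of a mean of at least 1 FPKM (fragments scaled by transcript length and library depth), as 14496 lines of the table did.

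The tumours were grown for 4 weeks under the skin of C57/BL6 mice from HEPA1-6, a mouse hepatoma line. Of the 10 tumours, 5 had been exposed to GSK343, which blocks the histone methyltransferase EZH2 (replicates 1 to 5), and 5 were taken as vehicle (replicates 1, 2, 3, 5 and 6) because their titles name no drug and the design has only these conditions. The treatment text also speaks of antibody injections, either a control or one directed at asialo-GM1 that depletes natural killer cells, but no label ties them to a tumour, so they could not enter a model. The strain is immunocompetent, and each sample is bulk RNA of tumour and host cells together: fewer cells of a type and less RNA per cell cannot be told apart. The liver tumour markers Afp and Alb stood at 1465 to 2154 and 2380 to 3061 FPKM in GSK343 tumours and at 1954 to 2424 and 2878 to 3658 FPKM in vehicle tumours, so the labelled tumour type was present. FPKM sums lay between 574547 and 623397 per tumour, and 13985 to 14714 lines reached 1 FPKM. The mitochondrial share of all FPKM was highest in GSK343 replicates 3 and 5, at 7.17% and 7.11%, and lay at 2.63% to 5.05% in the other tumours.

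The chromosome 3 genes share a short promoter element, shown here because it is the letter pattern through which interferon-activated factors are known to bind DNA. The core of the interferon-stimulated response element, which reads GAAA, any 2 bases and GAAA again, was searched on both strands of the 300 bases from 250 before to 50 after each RefSeq gene start (GRCm38.p6). All 4 chromosome 3 members had a window in the table of promoters, and all 4 held the core, each time on the minus strand, so that the plus strand reads TTTC, any 2 bases and TTTC. Gbp2b, another gene of that cluster, held it as well. The window of a second Gbp3 start did not. Over all 32851 promoter windows of the same length, 3.44% held the core, and 3.99% of the 27025 genes had at least 1 window with it. The whole window of Gbp2, the most abundant member, and 40 bases around the match in the other genes read as follows, 5′ to 3′ on the plus strand, with the match in capitals.
Gbp2 (chr3:142620413-142620712): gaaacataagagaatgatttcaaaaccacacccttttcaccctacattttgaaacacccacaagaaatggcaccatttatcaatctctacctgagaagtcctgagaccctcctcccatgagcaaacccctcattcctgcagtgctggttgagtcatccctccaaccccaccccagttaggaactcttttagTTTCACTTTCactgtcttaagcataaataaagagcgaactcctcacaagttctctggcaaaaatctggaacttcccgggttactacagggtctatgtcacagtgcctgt
Gbp3 (chr3:142559984-142560023): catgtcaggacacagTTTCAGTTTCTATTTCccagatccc
Gbp5 (chr3:142496754-142496793): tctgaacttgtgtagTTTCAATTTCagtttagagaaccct
Gbp7 (chr3:142530268-142530307): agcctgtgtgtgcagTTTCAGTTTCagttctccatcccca
Gbp2b (chr3:142594695-142594734): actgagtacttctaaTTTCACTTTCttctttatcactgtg

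The last base of the match lay 50 bases before the gene start in Gbp2, 44 in Gbp7, 128 in Gbp2b and 156 in Gbp5. In Gbp3 a pair of matches overlapped, ending 36 and 30 bases before the start. The gamma-activated site, which reads TTC, any 3 bases and GAA and was searched in the same windows, matched at 2 places each in Gbp5 and Gbp7 and at none in Gbp2, Gbp2b and the windows of both Gbp3 starts; 8.30% of all windows held it. A match is a run of letters and not a measured binding site. RefSeq starts are not those of the deposited table: the matches of Gbp2 and Gbp5 lie inside the table's gene intervals given below, and those of Gbp3 and Gbp7 lie upstream of them. Gbp4, Gbp6, Gbp8 and Gbp9 had no entry.

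All 8 GBP genes had higher means in GSK343 than in vehicle tumours, by 1.58-fold to 2.75-fold on the log2(FPKM + 1) scale, and none passed the test over all genes. The median log2 fold change of the 8 genes was 0.95, that is 1.93-fold, against -0.01 for all 14496 lines tested. By limma with Benjamini-Hochberg adjustment over all lines, 0 of the 8 passed at 0.05 (adjusted p 0.189 to 0.204), beside 0.0828% of all lines in either direction and 0.0690% higher. At an unadjusted p under 0.05 in limma, 8 of the 8 were higher and 0 lower, beside 10.7% of all lines higher and 6.86% lower. A log2 fold change above 0 was found for 8 of the 8, beside 47.6% of all lines. The 8 genes are not independent of each other, since they varied together from tumour to tumour. The groups did not overlap for 2 of the 8, Gbp6 and Gbp9, beside 1.42% of all lines with every GSK343 tumour above every vehicle tumour.

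**Figure D1:**
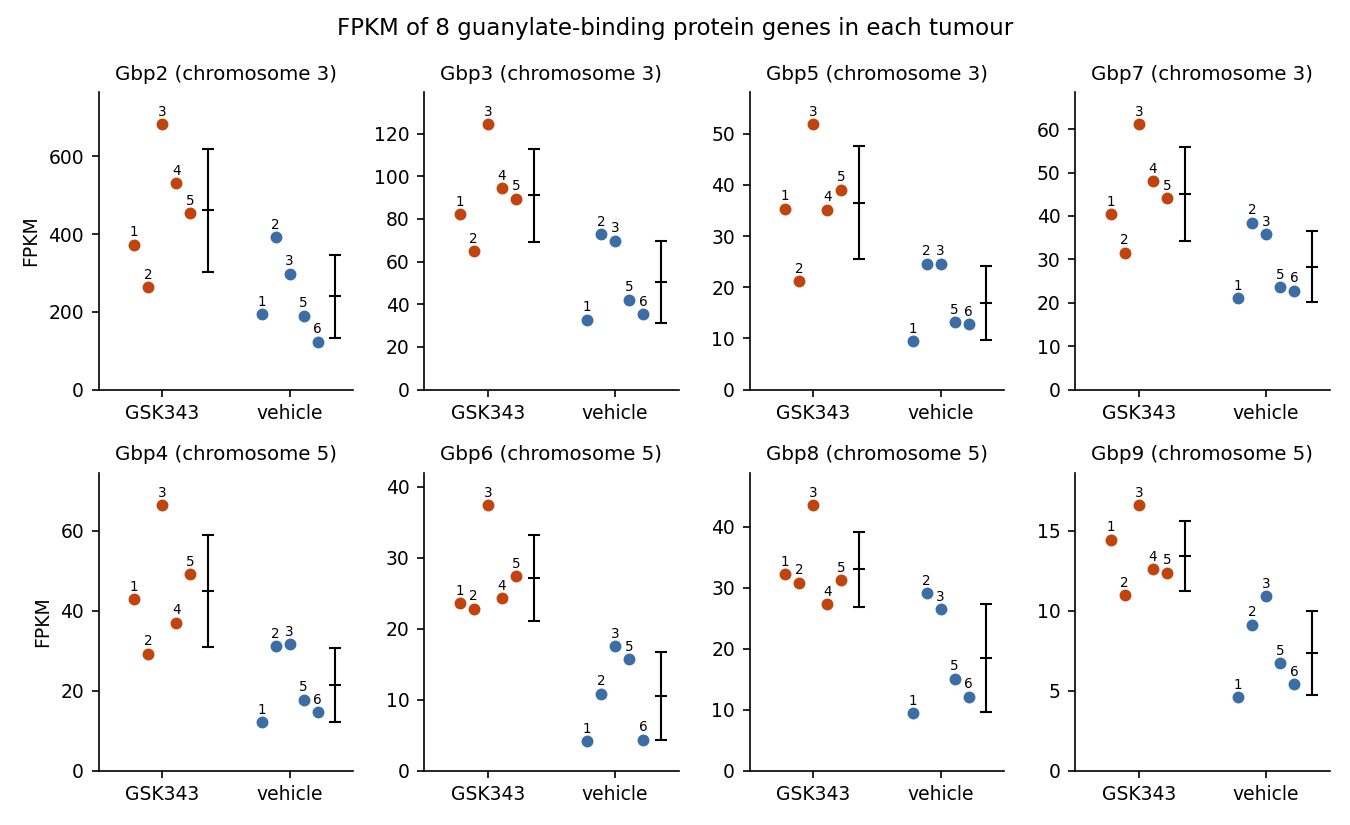
FPKM of each GBP gene in every tumour, with GSK343 tumours in orange and vehicle tumours in blue, each point numbered by replicate; the black mark is the mean with its SD (n = 5 per group). GSK343 replicate 3 is the highest tumour for all 8 genes, and vehicle replicates 2 and 3 both reach into the GSK343 range for 5 of the 8.

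Gbp2, a prenylated GBP that coats pathogen vacuoles in mouse cells, was by far the most abundant member (ENSMUSG00000028270.12, mm10 chromosome 3, 142620602 to 142638008, plus strand). It measured 373, 263, 684, 531 and 454 FPKM in GSK343 replicates 1 to 5, against 194, 393, 299, 190.2 and 123 FPKM in vehicle replicates 1, 2, 3, 5 and 6. Vehicle replicates 2 and 3 lay above the lowest GSK343 tumour, and 3 GSK343 tumours lay above every vehicle tumour. The means were 461 ± 159 FPKM in GSK343 and 239.8 ± 106 FPKM in vehicle tumours (SD, n = 5 each), a log2 fold change of 0.98 with an SE of 0.325 (limma adjusted p = 0.204).

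Gbp5, which promotes assembly of the NLRP3 inflammasome in mouse macrophages, had the highest fold of the chromosome 3 cluster (142493978 to 142522344). Its values were 35.3, 21.2, 51.9, 35.2 and 39.1 FPKM in GSK343 tumours, against 9.48, 24.6, 24.6, 13.2 and 12.8 FPKM in vehicle tumours. GSK343 replicate 2 was the 1 treated tumour that lay within the vehicle range. The log2 fold change was 1.11 (SE 0.290, limma adjusted p = 0.191). Gbp3 (142560026 to 142573209) averaged 91.1 ± 21.7 FPKM in GSK343 and 50.6 ± 19.2 FPKM in vehicle tumours, a log2 fold change of 0.88 (SE 0.249, limma adjusted p = 0.191). Gbp7, linked in mouse macrophages to autophagy and oxidative killing of bacteria, had the lowest fold of the 8 (142530342 to 142550149). It averaged 45.1 ± 10.9 FPKM in GSK343 and 28.3 ± 8.13 FPKM in vehicle tumours, a log2 fold change of 0.66 (SE 0.207, limma adjusted p = 0.199). For both Gbp3 and Gbp7, 4 of 5 GSK343 tumours lay above every vehicle tumour.

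The chromosome 5 genes lie on the minus strand, and 3 of them overlap: Gbp8 (105014150 to 105139540), Gbp9 (105077630 to 105139539) and Gbp4 (105115767 to 105139586) have nearly the same 5′ end, where they share 60 or 61 exonic bases pair by pair in GENCODE M21. Gbp9 measured 14.4, 10.95, 16.6, 12.6 and 12.4 FPKM in GSK343 tumours, against 4.58, 9.12, 10.93, 6.71 and 5.39 FPKM in vehicle tumours. The groups did not overlap, though GSK343 replicate 2 and vehicle replicate 3 differed by far less than the spread within either group. The log2 fold change of Gbp9 was 0.83 (SE 0.202, limma adjusted p = 0.189), the smallest p of the 8 genes. Gbp4 measured 42.9, 29.2, 66.4, 37.0 and 49.2 FPKM in GSK343 tumours, against 12.0, 31.1, 31.6, 17.8 and 14.7 FPKM in vehicle tumours. Vehicle replicates 2 and 3 again lay just above GSK343 replicate 2, and the log2 fold change was 1.08 (SE 0.293, limma adjusted p = 0.191). Gbp8 measured 32.2, 30.8, 43.5, 27.3 and 31.2 FPKM in GSK343 tumours, against 9.38, 29.0, 26.5, 15.1 and 12.2 FPKM in vehicle tumours. Here the overlap came from vehicle replicate 2 and GSK343 replicate 4 (log2 fold change 0.91, SE 0.280, limma adjusted p = 0.195).

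Gbp6 had the largest fold of the family and the least certain value (ENSMUSG00000104713.4, 105270702 to 105293698). It measured 23.6, 22.8, 37.5, 24.3 and 27.4 FPKM in GSK343 tumours, against 4.19, 10.8, 17.6, 15.7 and 4.38 FPKM in vehicle tumours. Every GSK343 tumour lay above every vehicle tumour, with a log2 fold change of 1.46 (SE 0.363, limma adjusted p = 0.191). Most of its transcript sequence is shared with other GBP lines, however. Of the distinct 50-base windows in its GENCODE M21 transcripts, 45.9% also occur in Gbp10, a neighbouring GBP gene, and 65.0% in the line RP23-329M7.3 (named Gm43302 in GENCODE M21), whose model spans both genes and shares 1726 exonic bases with Gbp6 and 1792 with Gbp10. For the other 7 members, windows shared with any other GBP gene made up 0% in Gbp5 and up to 18.1% in Gbp8.

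The division of FPKM among these 3 lines differed between tumours. Gbp6 over Gbp10 was a ratio of 1.35, 3.29, 1.43, 1.56 and 1.60 in GSK343 replicates 1 to 5, against 0.995, 0.408, 1.44, 3.08 and 1.36 in vehicle replicates 1, 2, 3, 5 and 6. Gbp10 itself averaged 16.6 ± 6.82 FPKM in GSK343 and 10.3 ± 9.77 FPKM in vehicle tumours, and its highest value, 26.5 FPKM, was that of vehicle replicate 2. Summed over the 3 lines, the values were 72.4, 51.0, 116, 75.3 and 80.2 FPKM in GSK343 tumours, against 20.3, 53.4, 53.7, 35.6 and 19.6 FPKM in vehicle tumours. On the sum the groups overlapped as they did for most other members, with vehicle replicates 2 and 3 above GSK343 replicate 2. The log2 fold change of the sum was 1.17 (SE 0.318, limma adjusted p = 0.192), against 1.46 for the Gbp6 line alone; this sum was chosen after the values were seen. The lack of overlap reported for Gbp6 therefore holds for the line as deposited and not for the 3 lines together.

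**Figure D2:**
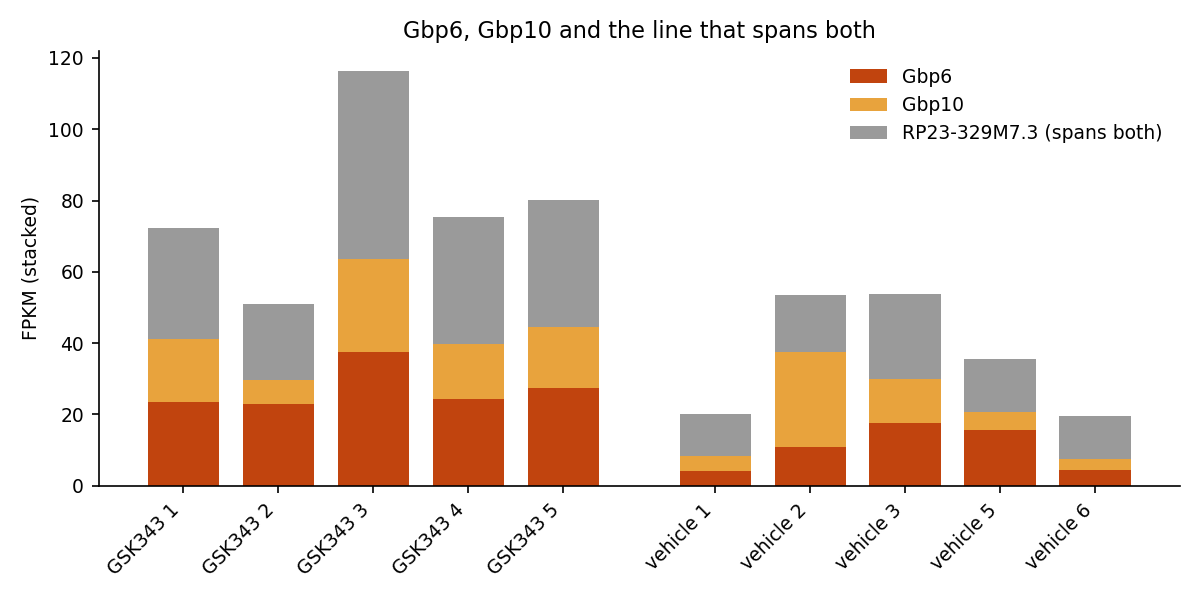
Stacked FPKM of Gbp6, Gbp10 and RP23-329M7.3, the line that spans both, in each tumour. The Gbp6 part varies against the Gbp10 part between tumours, and the whole bar of GSK343 replicate 2 (51.0 FPKM) is below those of vehicle replicates 2 and 3 (53.4 and 53.7 FPKM).

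The remaining expressed GBP lines also had higher means in GSK343 tumours, with none past the threshold. Gbp10 did not reach an unadjusted p under 0.05 in limma (log2 fold change 0.92, SE 0.506, limma adjusted p = 0.368). RP23-329M7.3 had a smaller p than any of the 8 members (log2 fold change 1.11, SE 0.238, limma adjusted p = 0.169). Gbp2b, the gene of mouse GBP1, measured 21.4, 21.2, 20.0, 17.4 and 22.8 FPKM in GSK343 tumours, against 6.23, 16.1, 18.2, 9.83 and 7.09 FPKM in vehicle tumours (log2 fold change 0.89, SE 0.256, limma adjusted p = 0.192). It differed from the 8 members in that GSK343 replicate 3 was not its highest tumour. Gbp11, a polymorphic pseudogene in GENCODE M21, averaged 6.82 ± 3.03 FPKM in GSK343 and 2.71 ± 1.21 FPKM in vehicle tumours (limma adjusted p = 0.191), and the pseudogene Gbp2-ps is listed at 0 in all 10 tumours.

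By cluster the median folds were close. The median log2 fold change was 0.93 for chromosome 3 (range 0.66 to 1.11) and 0.997 for chromosome 5 (range 0.83 to 1.46), and with 4 genes each no test of the clusters was made. Summed FPKM of the chromosome 5 members was 118 ± 27.5 in GSK343 and 57.7 ± 25.2 in vehicle tumours, and the lowest GSK343 tumour, at 93.8, was above the highest vehicle tumour, at 86.6; this sum includes the Gbp6 line. For chromosome 3 the sums were 634 ± 202 FPKM in GSK343 and 336 ± 138 FPKM in vehicle tumours and overlapped. Gbp2 supplied 60.5% ± 4.01 of the summed FPKM of the 8 genes in GSK343 tumours and 60.4% ± 5.60 in vehicle tumours, and the chromosome 5 members supplied 16.2% ± 2.71 in GSK343 and 14.7% ± 2.79 in vehicle tumours. As levels per length, the order was Gbp2, Gbp3, Gbp7, Gbp4, Gbp5, Gbp8, Gbp6, Gbp9. Gbp2 over Gbp3, Gbp3 over Gbp7 and Gbp4 over Gbp5 held in 10 of 10 tumours. Gbp7 over Gbp4 held in 2 of 5 GSK343 and 5 of 5 vehicle tumours, so their order was steady in vehicle tumours and mixed in GSK343 tumours. Gbp5 over Gbp8 held in 4 of 5 GSK343 and 2 of 5 vehicle tumours, and these neighbours did not differ beyond their spread over the 10 tumours. Gbp8 over Gbp6 held in 9 of 10 tumours and Gbp6 over Gbp9 in 8 of 10, with the reservation on Gbp6 above.

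Most of the GBP genes were high or low together in a given tumour. The sum over the 8 genes was 644, 475, 1085, 810.2 and 746 FPKM in GSK343 replicates 1 to 5, against 288, 609, 515, 324 and 231 FPKM in vehicle replicates 1, 2, 3, 5 and 6. On this sum, vehicle replicates 2 and 3 lay above GSK343 replicate 2. Vehicle replicates 1, 5 and 6 lay below every GSK343 tumour. The sum is mostly Gbp2. On the mean log2(FPKM + 1) of the 8 genes, vehicle replicate 2 (5.203) lay just below GSK343 replicate 2 (5.207). For Gbp6, Gbp8 and Gbp9, vehicle replicates 2 and 3 both lay below GSK343 replicate 2. With each group's mean subtracted, log2(FPKM + 1) of the 28 pairs of members had a Pearson r over the 10 tumours of 0.60 to 0.98, with a median of 0.89. The highest was that of Gbp3 with Gbp7, both on chromosome 3, and the next, at 0.98, that of Gbp4 with Gbp5, which lie on different chromosomes. The median r was 0.95 for pairs within chromosome 3, 0.87 within chromosome 5 and 0.85 across the clusters. Pairs with Gbp6 had a median r of 0.73 and the other 21 pairs a median of 0.92. These values are a description over 10 tumours: the genes of a pair were read in the same libraries, and no p is attached. Leukocyte marker levels also differed from tumour to tumour, and what made the GBP genes vary together was not tested.

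By the same measure, the 5 named genes outside the family most like its mean were Hcls1, a signalling adaptor of blood cells (r = 0.98, Spearman's rho 0.99), Parp14 (0.97 and 0.95) and Parp12 (0.97 and 0.93), interferon-induced ADP-ribosyltransferases, Cxcl10, a chemokine induced by interferon-gamma (0.97 and 0.98), and Phf11a (0.96 and 0.90). They were picked as the highest of all lines tested over 10 tumours. Hcls1 averaged 38.7 ± 7.28 FPKM in GSK343 and 21.1 ± 8.05 FPKM in vehicle tumours, and Parp14 averaged 16.8 ± 2.94 FPKM in GSK343 and 9.82 ± 3.39 FPKM in vehicle tumours.

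The upstream interferon-gamma pathway was mixed. Of 13 genes listed for the ligand, receptor, kinases, transcription factors and brakes, 0 passed over all genes by limma. At an unadjusted p under 0.05 in limma, 6 were higher and none lower, beside 10.7% of all lines higher and 6.86% lower. The log2 fold change was above 0 for 10 of the 13, beside 47.6% of all lines, with a median of 0.21. Ifng, the ligand, made by T and natural killer cells, measured 5.33, 4.44, 20.8, 6.78 and 11.7 FPKM in GSK343 tumours, against 1.68, 7.38, 4.70, 1.57 and 1.49 FPKM in vehicle tumours. GSK343 replicate 3, the highest tumour for all 8 GBP genes, was the highest for Ifng too, and vehicle replicate 2 lay above 3 GSK343 tumours (log2 fold change 1.302, SE 0.450, limma adjusted p = 0.210). Stat2, a transcription factor of the type I interferon pathway, averaged 16.8 ± 6.54 FPKM in GSK343 and 7.83 ± 3.37 FPKM in vehicle tumours (limma adjusted p = 0.191). Irf9, a DNA-binding factor of the same pathway, averaged 14.3 ± 2.80 FPKM in GSK343 and 8.97 ± 3.59 FPKM in vehicle tumours.

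Irf1, the transcription factor through which interferon-gamma is known to induce Gbp2 in mouse cells, was not higher on average in GSK343 tumours. It measured 214, 176, 107, 91.3 and 102 FPKM in GSK343 tumours, against 81.4, 228, 187, 135 and 126 FPKM in vehicle tumours. GSK343 replicate 3, with the most GBP transcript, had less Irf1 than 4 of the 5 vehicle tumours (log2 fold change -0.13, SE 0.307, limma adjusted p = 0.850). Within the vehicle group, replicates 2 and 3 were highest for Irf1 and for the summed GBP genes. Within the GSK343 group, replicates 1 and 2 were highest for Irf1, and replicate 2 was lowest for the GBP sum. Whether Irf1 has a part in the GBP difference was not tested. The ligand-binding receptor chain Ifngr1 averaged 32.2 ± 4.52 FPKM in GSK343 and 44.6 ± 22.9 FPKM in vehicle tumours, where replicates 5 and 6 stood at 74.3 and 64.1 FPKM. Its partner chain Ifngr2 averaged 25.5 ± 2.20 FPKM in GSK343 and 23.4 ± 2.95 FPKM in vehicle tumours. The kinases had log2 fold changes of 0.36 for Jak1 and 0.21 for Jak2, and Irf8, a myeloid factor, and Irf2 had 0.05 and 0.20. The brake Socs1 averaged 14.7 ± 4.57 FPKM in GSK343 and 7.20 ± 5.78 FPKM in vehicle tumours, with 0.0349 FPKM in vehicle replicate 5, and Ptpn2, a phosphatase that turns the pathway off, averaged 35.4 ± 0.980 FPKM in GSK343 and 37.7 ± 2.42 FPKM in vehicle tumours.

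**Figure D3:**
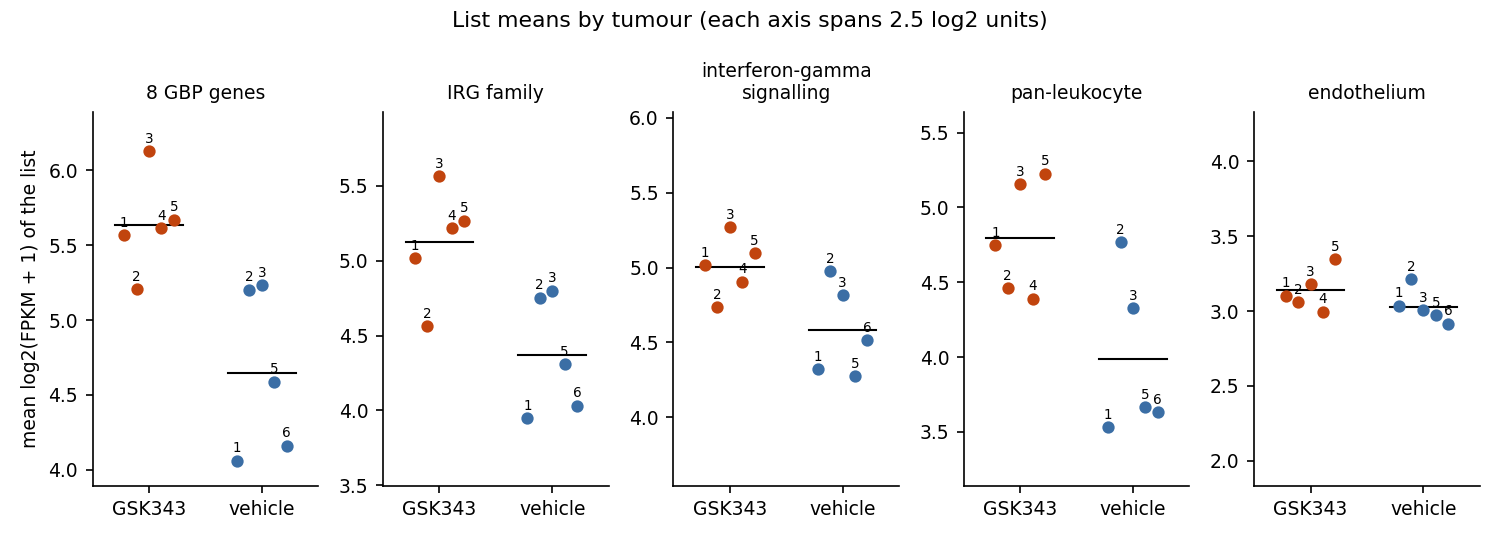
Mean log2(FPKM + 1) of the tested genes of 5 lists in each tumour, numbered by replicate, with GSK343 tumours in orange, vehicle tumours in blue and a line at each group's mean; every axis spans the same number of log2 units. The GBP, IRG, interferon-gamma signalling and pan-leukocyte lists separate vehicle replicates 2 and 3 from replicates 1, 5 and 6. The endothelial list varies little.

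Genes whose products work with GBPs were next counted against the same background, 10.7% of all lines higher and 6.86% lower at an unadjusted p under 0.05. The immunity-related GTPases (IRGs), which act with GBPs on pathogen vacuoles in mouse cells, were higher at an unadjusted p under 0.05 in 11 of 11 tested genes, with a median log2 fold change of 0.73 and none past the adjusted threshold. Iigp1 had the smallest p of them, at 162, 103, 253, 187 and 188 FPKM in GSK343 tumours, against 69.8, 66.4, 133, 84.9 and 73.7 FPKM in vehicle tumours (limma adjusted p = 0.189). Vehicle replicate 2, with high GBP values, was the lowest of all tumours for Iigp1. Tgtp1 and Tgtp2 of the IRG list had close values in every tumour and a log2 fold change of 0.86 each. The 11 IRG genes are therefore not 11 separate readings. Of 9 inflammasome and pyroptosis genes, 6 were higher at an unadjusted p under 0.05, and 0 passed the adjusted threshold, with a median of 0.50. Gsdmd, the gene of the pore-forming gasdermin D, averaged 106 ± 10.04 FPKM in GSK343 and 84.8 ± 11.3 FPKM in vehicle tumours (limma adjusted p = 0.201), while the DNA sensor Aim2, named after its values were seen, averaged 36.4 ± 6.60 FPKM in GSK343 and 37.6 ± 1.02 FPKM in vehicle tumours. The autophagy conjugation genes that place GBPs on vacuoles had a median log2 fold change of 0.02, with 1 of 11 higher at an unadjusted p under 0.05 (Atg10) and 0 lower. The enzymes that attach and trim the lipid tail of prenylated proteins such as Gbp2 had a median of -0.05, with 0 of 6 past an unadjusted p of 0.05. Among other genes induced by interferon-gamma 15 of 18, and among those induced by type I interferon 16 of 23, were higher at an unadjusted p under 0.05, with medians of 0.58 and 0.60. None of these lists held a gene past the adjusted threshold.

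Leukocyte markers also had higher means in GSK343 tumours. The counts of markers below stand against the same shares of all lines, 10.7% higher and 6.86% lower at an unadjusted p under 0.05 and 47.6% with a log2 fold change above 0, and the medians against -0.01. Of 15 pan-leukocyte markers, 15 had a positive log2 fold change and 12 an unadjusted p under 0.05 (median log2 fold change 0.75). Their summed FPKM was 639 to 1089 in GSK343 and 318 to 909 in vehicle tumours, and none is listed at 0 in all tumours. Ptprc, the gene of CD45, measured 23.2, 7.97, 27.5, 5.60 and 31.0 FPKM in GSK343 tumours, against 1.74, 4.99, 7.22, 2.36 and 2.63 FPKM in vehicle tumours. Its log2 fold change of 1.93 was the largest of the 15, and the others lay between 0.40 and 1.22. Macrophage and monocyte markers were higher at an unadjusted p under 0.05 in 11 of 14 tested genes, with a median log2 fold change of 0.92, close to that of the GBP genes, and summed FPKM of 899 to 1474 in GSK343 and 399 to 1542 in vehicle tumours. At the same p, 3 of 12 T cell markers were higher, with a median of 0.65 and sums of 103 to 271 FPKM in GSK343 and 56.2 to 187 FPKM in vehicle tumours. For natural killer cells it was 3 of 7 tested markers, with a median of 0.84 and sums of 41.1 to 137 FPKM in GSK343 and 23.9 to 84.0 FPKM in vehicle tumours. For dendritic cells it was 4 of 5, with a median of 0.60 and sums of 39.7 to 77.9 FPKM in GSK343 and 13.7 to 62.0 FPKM in vehicle tumours. For neutrophils it was 2 of 5, with a median of 0.80 and sums of 87.6 to 169.9 FPKM in GSK343 and 46.4 to 114 FPKM in vehicle tumours. For B cells 1 of 8 markers passed the filter, and the sums were 2.38 to 5.44 FPKM in GSK343 and 1.44 to 5.56 FPKM in vehicle tumours. Every marker of these immune lists was above 0 in at least 1 tumour. Endothelial markers, of cells that also express GBPs, had a median log2 fold change of 0.13, with 0 of 9 higher and 1 lower at that p, and sums of 96.1 to 119.9 FPKM in GSK343 and 94.6 to 118 FPKM in vehicle tumours. Fibroblast markers were higher at that p in 7 of 10 genes, with a median of 0.45 and sums of 1542 to 2348 FPKM in GSK343 and 1587 to 2005 FPKM in vehicle tumours. Skeletal muscle markers were so in 8 of 10, with a median of 1.65, above that of the GBP genes, and sums of 64.6 to 476 FPKM in GSK343 and 2.79 to 113 FPKM in vehicle tumours. Of 13 hepatoma genes, 4 were lower and 0 higher at that p, with a median of -0.24 and sums of 6090 to 7790.1 FPKM in GSK343 and 7435 to 10019 FPKM in vehicle tumours. No marker in any of these lists passed the adjusted threshold in limma, and the part of these cells in the GBP difference was not tested.

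With the pan-leukocyte mean of each tumour added to the model, the fold changes of the GBP genes kept their sign and were smaller. The median log2 fold change was 0.25, and 0 of the 8 genes had an unadjusted p under 0.05, against 8 without it; the share of all lines higher at that p was 3.12%. Gbp6 kept the highest value, 0.85 (SE 0.445), Gbp9 had 0.37, Gbp5 0.34, Gbp4 0.26, Gbp3 0.24, Gbp2 0.22, Gbp8 0.17 and Gbp7 0.15 (limma adjusted p = 0.998 for each). The pan-leukocyte mean itself was higher in GSK343 tumours, at 4.80 ± 0.385 in GSK343 and 3.99 ± 0.539 in vehicle tumours, and it was measured after treatment. Without GSK343 replicates 3 and 5, the tumours of highest mitochondrial share and highest pan-leukocyte mean, the median log2 fold change of the 8 genes was 0.78. In that fit 6 of the 8 had an unadjusted p under 0.05 (limma adjusted p 0.745 to 0.749), beside 4.84% of all lines higher at that p.

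**Figure D4:**
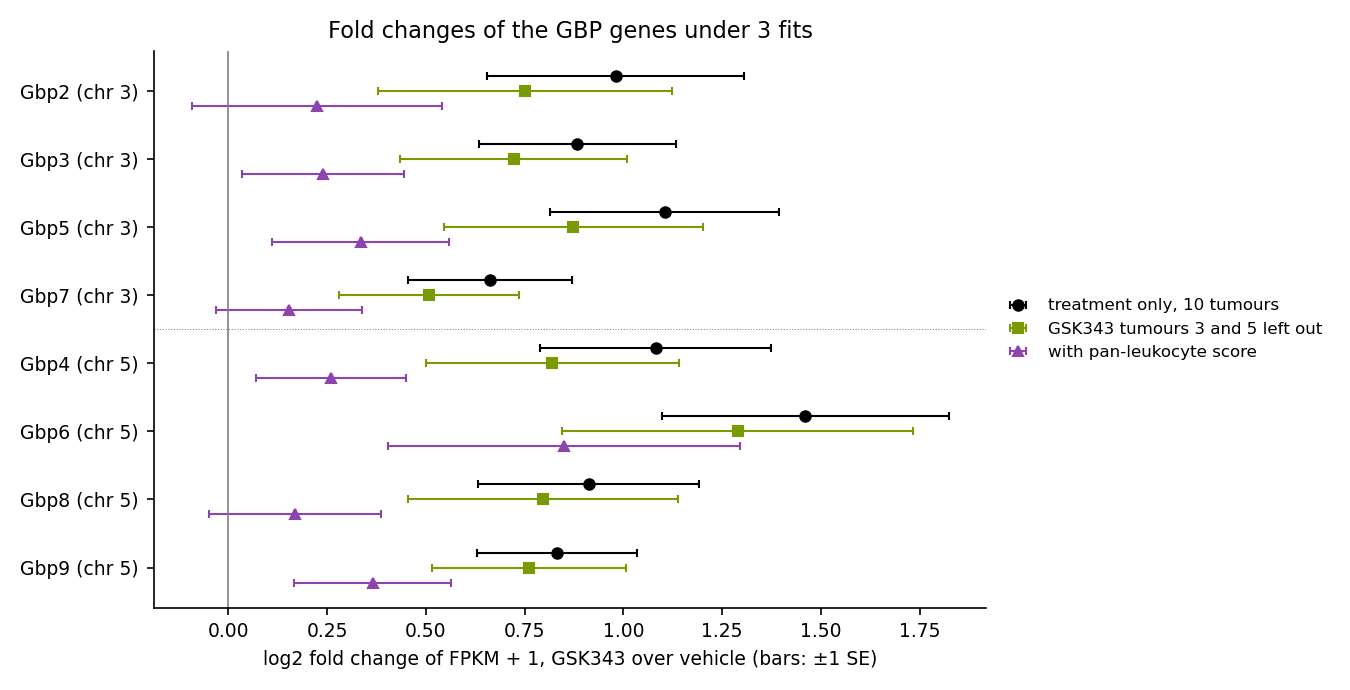
Log2 fold change of each GBP gene, GSK343 over vehicle, on the log2(FPKM + 1) scale with bars of 1 SE, under 3 fits: treatment only (black circles), GSK343 replicates 3 and 5 left out (green squares) and the pan-leukocyte mean as a covariate (purple triangles). All values are above 0; medians are 0.95, 0.78 and 0.25.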

How the data were processed

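Poly-A RNA of 10 HEPA1-6 tumours was sequenced. The authors deposited FPKM values, 1 for each line and sample; the header names no unit, and FPKM was read from the values and the tools. Trimmomatic 0.33, HISAT2 2.1.0, StringTie 1.3.3b and mm10 were used, per the submitters' processing notes; the annotation release, strand setting and read depth were not given in the sources used here, whole reads could not be recovered, and no counting interval can be given. The table also has 10 unnamed columns that hold no value. StringTie divides reads among overlapping models. How reads were assigned among lines with shared sequence could not be checked without the reads.

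From these values, log2(FPKM + 1) was tested in limma 3.58.1 under R 4.3.3 (intensity trend, two-sided) for the 14496 lines averaging 1 FPKM or more, Benjamini-Hochberg adjusted over all of them, calls at 0.05. Such fold changes understate those of low genes. The test was checked on simulated data in which each gene varied on its own, unlike the GBP genes here. Replicates are biological per the design text. The 8 members, the 18 gene lists and the tests were chosen with earlier results of these data known. Named were the members, other GBP lines, the pathway genes, up to 4 genes of each list and the 5 lines most like the family mean. A listed pathway gene is not reported here by name. Where a gene list symbol was missing from the table, the GENCODE M21 name of the identifier was used. Alternatives covered the filter, pseudocount, scaling, variance model, weights, pan-leukocyte score, a replicate block, summed lines, and tumours left out; the sum of Gbp6 with its neighbours was added after the values were seen. Promoter windows are from RefSeq (GRCm38.p6). Plots were drawn with matplotlib 3.10.9.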

Additional observations from a re-analysis of the deposited data

How the results depend on the processing

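No GBP gene passed the adjusted threshold under any of the 22 alternatives, and all 8 kept a positive log2 fold change in each. The lowest adjusted p of a member, 0.0589, came without vehicle replicate 2. Leaving out 1 tumour at a time gave a median log2 fold change of 0.79 to 1.14 for the family, 0.77 to 1.11 for chromosome 3 and 0.81 to 1.17 for chromosome 5. Each time 8 members were higher at an unadjusted p under 0.05 in limma, beside 7.94% to 13.3% of all lines. The pan-leukocyte covariate moved the medians to 0.25, 0.23 and 0.31 and that count to 0; the cause was not tested.

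The number of lines called over the whole table, 12, was less steady. It was 2 with the pan-leukocyte covariate, 2 with the replicate block, 3 at a mean of at least 5 FPKM, 6 with no filter, 7 with quantile normalization and 4 without GSK343 replicates 3 and 5. With single tumours left out it ranged from 3 to 96: 96 without vehicle replicate 2, 37 without GSK343 replicate 1, 3 to 6 without vehicle replicate 1, 5 or 6 or GSK343 replicate 2, 3, 4 or 5, and 11 without vehicle replicate 3.

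The replicate numbers 1, 2, 3 and 5 occur in both groups, but same-numbered tumours did not deviate together (r -0.33 to 0.03 over all lines tested, and none was most like its own number). The numbers were used here only to name samples, though these correlations cannot exclude a batch shared by same-numbered tumours. With the number as a block, 7 members had an unadjusted p under 0.05 in limma, beside 6.52% of all lines higher at that p, and 0 were called. Depth limits could not be computed from FPKM.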

Other observations

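A gene outside the lists tracked the GBP genes among tumours of the same group while its group means were close. Neu1, a lysosomal sialidase chosen after its values were seen, had a Pearson r of 0.94 with the family mean once group means were removed (Spearman's rho 0.92, 10 tumours), and averaged 20.0 ± 1.70 FPKM in GSK343 and 20.5 ± 2.26 FPKM in vehicle tumours (log2 fold change -0.03, limma adjusted p = 0.878). Among the 22 groups of 5 values formed by the 8 members and Gbp2b, Gbp10 and Gbp11, 0 held a single value set apart from the rest by the Dixon criterion.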
